A study of Mus musculus with 2 samples.

Results

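A set of 7 genes of brown fat heat production was examined in the lungs of male C57BL/6 mice, an inbred laboratory strain. It holds Ucp1, Cidea, Cox8b, Cox7a1, Otop1, Elovl3 and Adrb3, found by symbol. They were picked because several of them were known to differ between the arrays of these samples, so their differences are a description of the choice and not a test of it. All 7 members were found, each as a single transcript cluster (the set of probes that reports on a gene), among 19122 genes that carry a single symbol. One array came from irradiated lung, taken 25 weeks after the chest had been exposed to gamma rays at 7 weeks of age. The other array came from nonirradiated lung of the same strain and sex, with the same starting age (7 weeks) and time point (25 weeks). Radiation was delivered at 0.81 Gy/min; neither the total dose nor the number of mice behind each array is stated in the labels. The irradiated mice had been reported to have lung fibrosis and an excess of alpha-smooth muscle actin. A single array per group allows neither a replicate error nor a test, and this number of arrays limits the precision.

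Brown adipocytes burn fat to make heat. Noradrenaline from sympathetic nerves acts on beta adrenergic receptors, stored triglyceride is broken down, and the uncoupling protein UCP1 lets protons flow back across the inner mitochondrial membrane without making ATP. The respiratory chain, of which cytochrome c oxidase is the last enzyme, rebuilds the proton gradient. Lung alveoli hold no brown fat, but depots of it lie in the mediastinum and along the large vessels of the mouse chest.

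The stretches of DNA just before the start sites of 3 members with higher values in the irradiated array are shown because Ucp1 is a classical target of nuclear receptors and of cyclic AMP signalling, and because the oxidase genes show how differently the members' start regions are built. RefSeq (build GRCm38.p6) gave a start region for 4 of the 7 members, and the 250 bases before the start site were searched on both strands for the nuclear receptor half-site AGGTCA, the cyclic AMP half-site TGACG, the CCAAT box (CCAAT) and the TATA box (TATAAA). Capitals mark every match, the sequences run 5′ to 3′ on the gene's strand, and positions count back from -1 at the base before the start site. The windows are chr8:83290098-83290347 on the plus strand for Ucp1, chr7:140900447-140900696 on the minus strand for Cox8b and chr7:30183921-30184170 on the plus strand for Cox7a1.
Ucp1: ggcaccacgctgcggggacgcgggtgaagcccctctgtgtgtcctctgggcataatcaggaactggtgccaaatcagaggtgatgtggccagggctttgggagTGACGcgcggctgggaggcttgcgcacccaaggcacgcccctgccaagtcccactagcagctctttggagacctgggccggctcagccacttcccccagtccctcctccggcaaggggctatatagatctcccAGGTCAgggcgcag
Cox8b: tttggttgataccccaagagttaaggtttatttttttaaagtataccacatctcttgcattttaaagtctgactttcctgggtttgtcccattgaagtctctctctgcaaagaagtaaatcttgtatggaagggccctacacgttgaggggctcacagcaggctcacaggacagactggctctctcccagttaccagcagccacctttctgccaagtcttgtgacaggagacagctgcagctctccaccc
Cox7a1: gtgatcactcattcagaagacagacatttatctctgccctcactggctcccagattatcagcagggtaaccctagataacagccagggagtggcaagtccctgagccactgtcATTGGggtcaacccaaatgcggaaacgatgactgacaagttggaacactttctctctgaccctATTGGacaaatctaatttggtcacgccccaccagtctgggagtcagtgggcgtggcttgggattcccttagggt
The Ucp1 window held AGGTCA at positions -14 to -9 and TGACG at positions -147 to -143, and the matches did not overlap. Cox7a1 held the CCAAT box on the opposite strand at positions -137 to -133 and -74 to -70. None of the 4 motifs was found in these letters for Cox8b or for Otop1, the fourth member with a start region. Such matches are common: among 32817 start regions of the same length, 14.0% held AGGTCA, 17.7% TGACG, 33.8% CCAAT and 12.4% TATAAA. The windows also differed in base composition, with 64.8% G and C in Ucp1, 47.2% in Cox8b, 51.2% in Cox7a1 and 70.0% in Otop1, against a median of 52.4%. A match is a description of the sequence and was not tested as a binding site.

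Of the 7 genes, 5 were at least 1.5-fold higher in the irradiated array than in the nonirradiated one, and 4 were at least 2-fold higher. Elovl3 and Adrb3 were not past either limit, and no member was 1.5-fold lower. Over all 19122 genes, 2.07% were at least 1.5-fold higher, 0.335% at least 2-fold higher and 1.2% at least 1.5-fold lower, and these shares stand beside the members' counts only as a background, since the members were chosen on the same difference. The median log2 difference of the members was 1.22, against -0.02 over all genes. The member just past the 1.5-fold limit was Cox7a1, at 0.77 on the log2 scale, and the nearest below it was Adrb3, at 0.29. In bulk lung tissue, more cells of a type and more RNA per cell cannot be told apart.

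**Figure D1:**
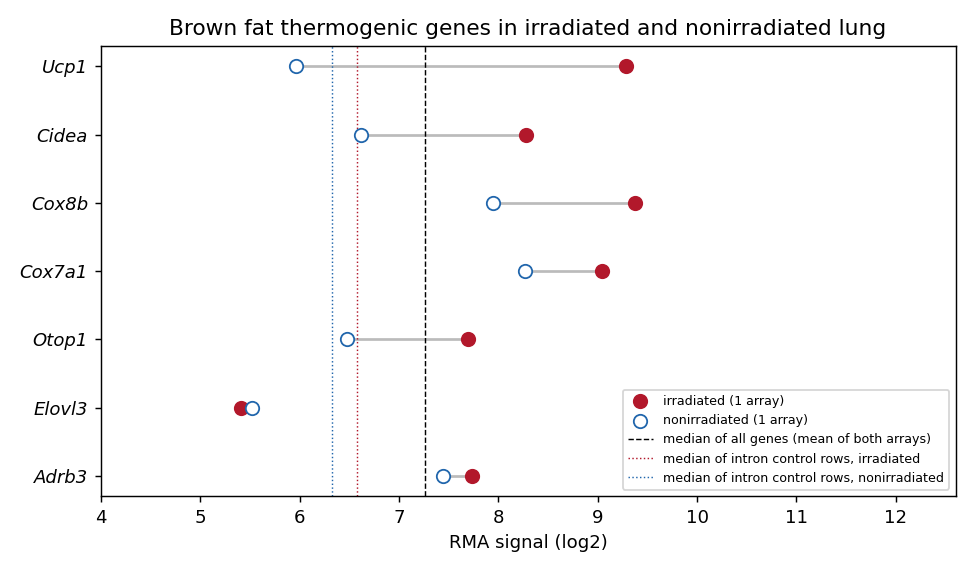
RMA signal on the log2 scale (x axis) of the 7 genes (rows) in the irradiated array (filled red points) and the nonirradiated array (open blue points), with the median of all genes (dashed) and the medians of intron control rows (dotted). Ucp1 lies left of every line in the nonirradiated array and right of them in the irradiated array, while the 2 points of Elovl3 lie side by side below all lines.

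Ucp1 carries protons across the inner mitochondrial membrane and defines brown and beige adipocytes. Its transcript cluster lies on chromosome 8 (83290348 to 83298456, plus strand, GRCm38), covers the gene as RefSeq places it and has 27 probes. Ucp1 read 9.29 in the irradiated array and 5.96 in the nonirradiated array on the log2 scale. The irradiated value stood above the array median and the nonirradiated value below it, a 10.03-fold difference (3.33 on the log2 scale), the first of all 19122 genes when ordered by difference. Ranked by level from the top, Ucp1 was at place 3509 in the irradiated array and at place 14028 in the nonirradiated array. A place also depends on how well the probes of a gene bind, so it can be compared between the arrays for 1 gene but not between genes.

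The nonirradiated level of Ucp1 was no higher than that of sequences that mature messenger RNA lacks. Intron probes of normalisation genes, 5331 rows in all, had a median of 6.33 in the nonirradiated array, and 39.9% of them read lower than Ucp1 there. In the irradiated array, where their median was 6.58, 97.3% read lower than Ucp1. No detection call was used, so the fold of Ucp1 is given as measured, and the nonirradiated value gives no evidence of expression above such rows.

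The other uncoupling proteins did not follow Ucp1. Ucp2, the widely expressed member of the family that immune cells use, read 10.07 in the irradiated array and 10.05 in the nonirradiated array. Ucp3, a member that skeletal muscle uses, read 6.74 in the irradiated and 6.70 in the nonirradiated array. Intron control rows had medians of 6.58 in the irradiated and 6.33 in the nonirradiated array, so Ucp3 was near them in both. Slc25a27 differed by 0.01 and Slc25a30, a kidney carrier of the same family, by -0.20, so that 0 of the 4 other measured relatives reached 1.5-fold in either direction. Slc25a14 was not matched to a symbol.

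Otop1 encodes otopetrin 1, a proton channel needed for the balance organ of the inner ear and also expressed in brown fat of the mouse. Its cluster lies on chromosome 5 (38275972 to 38304217, plus strand) and has 20 probes. Otop1 read 7.70 in the irradiated array and 6.48 in the nonirradiated array. The irradiated value was above the array median and the nonirradiated one below it, a 2.34-fold difference, at place 8214 by level in the irradiated and 12234 in the nonirradiated array. Its relatives Otop2 and Otop3 differed by -0.01 and -0.04. The nonirradiated Otop1 value was higher than 54.2% of intron rows there, and the irradiated value was higher than 78.8% of them in its own array.

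Cidea encodes a protein of lipid droplets that is abundant in brown adipocytes and promotes droplet fusion. Its cluster lies on chromosome 18 (67343564 to 67367794, plus strand) and has 21 probes. Cidea read 8.27 in the irradiated array and 6.62 in the nonirradiated array. Again the irradiated value was above the array median and the nonirradiated one below it, and the 3.15-fold difference placed Cidea 5th of all genes by difference. By level it was at place 6416 in the irradiated and at place 11688 in the nonirradiated array. The nonirradiated Cidea value was higher than 58.2% of intron rows there, and the irradiated value was higher than 89.0% of them in its own array. Cidec, the relative that white adipocytes use and that macrophages of the lung also express, read 9.90 in the irradiated and 9.21 in the nonirradiated array, a 1.61-fold difference. Cideb, the liver member of the family, differed by 0.11. The CIDE genes were the family here in which a relative outside the 7 members was also at least 1.5-fold higher in the irradiated array.

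Cox8b and Cox7a1 encode subunits of cytochrome c oxidase in the versions that brown fat shares with heart and skeletal muscle. Cox8b, on chromosome 7 (140898942 to 140900446, minus strand, 23 probes), read 9.37 in the irradiated array and 7.95 in the nonirradiated array. Cox7a1, also on chromosome 7 (30184171 to 30186030, plus strand, 23 probes), read 9.05 in the irradiated array and 8.27 in the nonirradiated array. Unlike Ucp1, Cidea and Otop1, both oxidase genes already exceeded the nonirradiated array's median. The differences were 2.68-fold for Cox8b and 1.71-fold for Cox7a1, or 11th and 166th of all genes. By level, Cox8b stood at place 3270 in the irradiated and 7580 in the nonirradiated array, and Cox7a1 at place 4161 in the irradiated and 6584 in the nonirradiated array.

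As a group, the other nuclear-encoded subunit genes of the enzyme did not share this direction. Among the 16 other nuclear-encoded subunit genes measured, 7 were higher and 9 lower in the irradiated array, 0 were 1.5-fold higher and 1 was 1.5-fold lower, with a median log2 difference of -0.08. The ubiquitous counterpart Cox8a read 11.77 in the irradiated and 11.82 in the nonirradiated array, and Cox7a2, the counterpart of Cox7a1, read 10.46 in the irradiated and 10.78 in the nonirradiated array. Cox6a2, the third subunit with a version typical of heart and skeletal muscle, read 8.81 in the irradiated and 8.50 in the nonirradiated array and so differed by 0.31. The subunit past 1.5-fold in the other direction was Cox4i1, the common form of subunit 4, at 9.70 in the irradiated and 10.43 in the nonirradiated array.

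**Figure D2:**
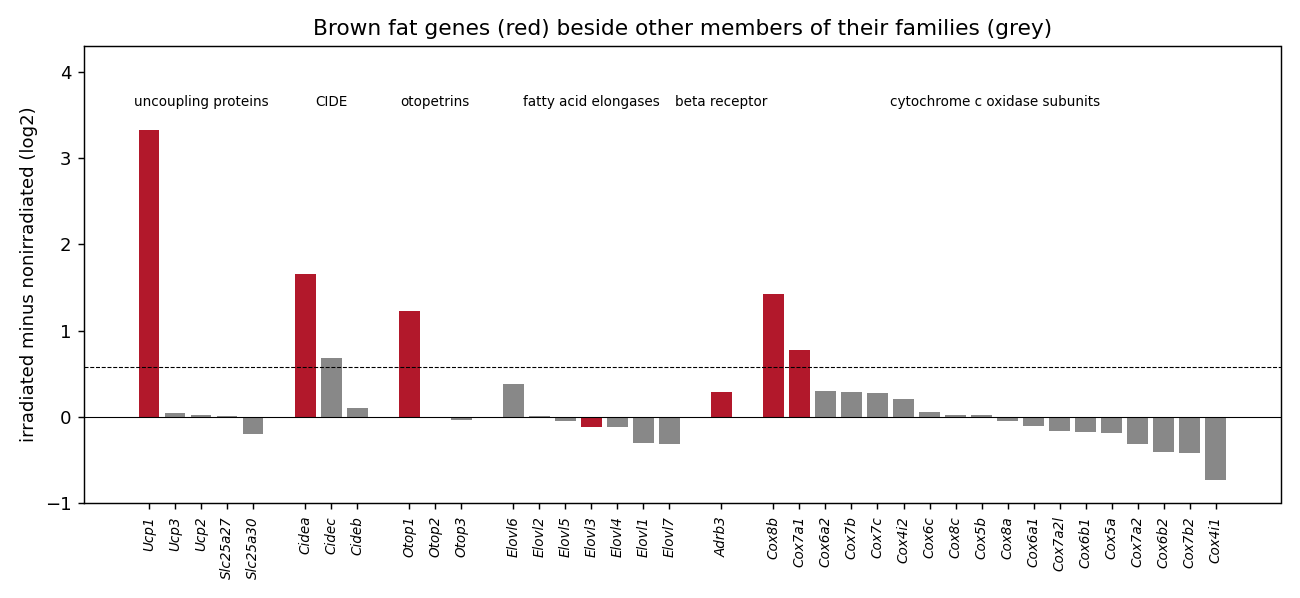
Log2 difference, irradiated minus nonirradiated (y axis), of the 7 brown fat genes (red bars) beside other measured genes of their families (grey bars), with the 1.5-fold limit as a dashed line. Outside the 7 genes, Cidec (0.69) is the bar above the limit, and the 16 grey oxidase subunits lie between -0.73 and 0.31.

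Elovl3 encodes a fatty acid elongase of very long saturated chains, which in mouse brown fat is induced by cold. It lies on chromosome 19 (46131897 to 46135694, plus strand, 22 probes). Elovl3 read 5.41 in the irradiated array and 5.52 in the nonirradiated array. Both values were well below the array medians, and 23.5% of intron rows read lower than Elovl3 in the irradiated array and 30.1% in the nonirradiated array, so neither gave evidence of expression above those rows. The difference was -0.11. Among the 7 elongases, none was 1.5-fold higher or lower. Elovl6, which lengthens palmitate in fat-making tissues, had the largest positive difference of them at 0.39, and Elovl7 and Elovl1 both differed by -0.31.

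Adrb3 encodes the beta-3 adrenergic receptor, which fat cells use to sense noradrenaline. Its cluster lies on chromosome 8 (27225776 to 27229588, minus strand, 28 probes). Adrb3 read 7.73 in the irradiated array and 7.45 in the nonirradiated array. Both values were slightly above the array medians, and the 1.22-fold difference placed it 1981st of all genes. Its value was higher than 79.7% of intron rows in the irradiated array and 80.0% in the nonirradiated array, so its standing against those rows did not rise. Adrb1 was not matched.

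**Figure D3:**
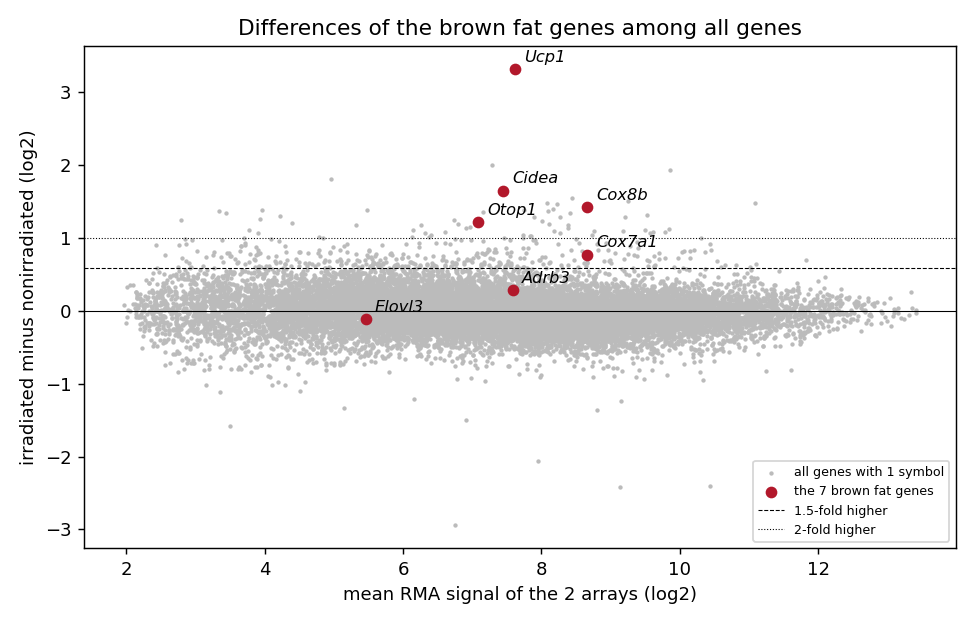
Log2 difference, irradiated minus nonirradiated (y axis), against the mean log2 signal of the 2 arrays (x axis) for 19122 genes (grey) and the 7 brown fat genes (red), with dashed and dotted lines at 1.5-fold and 2-fold. Ucp1 stands alone at 3.33, Cidea, Cox8b and Otop1 lie above the dotted line, Cox7a1 lies between the lines, and Adrb3 and Elovl3 lie inside the grey band.

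The members' neighbours on their chromosomes did not share the differences. The nearest genes with a symbol on either side of Ucp1, Cidea, Cox8b, Cox7a1 and Otop1 differed by between -0.43 and 0.33 on the log2 scale, and none reached 1.5-fold. Tbc1d9, 17.4 kb from Ucp1 toward lower coordinates, read 8.92 in the irradiated and 9.35 in the nonirradiated array. Capns1, 0.912 kb from Cox7a1, read 12.48 in the irradiated and 12.47 in the nonirradiated array.

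Genes that resemble a member over the 2 arrays were found by the distance between their pairs of log2 values. Nearest to Ucp1 were Ngp, a granule protein of immature neutrophils, at a distance of 1.05, Cidea at 1.21 and mmu-mir-297a-2, a microRNA precursor, at 1.38, so no gene lay close to it. Among the nearest to Cidea were Ngp (0.34) and mmu-mir-297a-2 (0.47). Nearest to Cox8b were the heat shock gene Hspa1b (0.27), the pyruvate dehydrogenase kinase gene Pdk4 (0.29) and the globin chaperone gene Ahsp (0.32). Among the nearest to Otop1 were the heart calsequestrin gene Casq2 (0.22) and the heart transcription factor gene Tbx20 (0.27). Cox7a1 had close neighbours in Hhip, an inhibitor of hedgehog signalling, in Tyms, thymidylate synthase, and in the immunoglobulin segment Igk-V28, at distances of 0.07, 0.08 and 0.11. With 2 arrays, such likeness means a similar pair of values and no more.

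Other brown fat genes pointed both ways. Of 27 measured genes among 35 regulators, receptors and secreted factors of brown and beige fat, 12 were higher and 15 lower in the irradiated array, 1 was at least 1.5-fold higher, and none was 1.5-fold lower. Their median log2 difference was -0.03, against -0.02 over all genes. The 1 gene past the limit was Pdk4, which restrains glucose oxidation in many tissues, at 9.25 in the irradiated and 8.21 in the nonirradiated array. Kcnk3, a potassium channel of brown fat and heart, differed by 0.51, Pparg, the master regulator of fat cells and also a factor of alveolar macrophages, by 0.38, and the coactivator Ppargc1b by 0.37. The fat cell regulators Cebpa and Cebpb, which lung epithelium uses too, differed by -0.46 and -0.32. The brown fat lineage genes Zic1 and Lhx8 were below the medians of the intron rows in both arrays, at 5.83 and 5.45 in the irradiated array and 5.89 and 5.37 in the nonirradiated array. Prdm16 differed by -0.12 and Dio2, the enzyme that makes active thyroid hormone, by 0.22. Ppargc1a, Ebf2 and 6 other entries were not matched.

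The deposited annotation assigns the term brown fat cell differentiation to 28 of the genes with a symbol, Ucp1 and Adrb3 among them. Of the 26 others, 17 were higher and 9 lower in the irradiated array, 5 were at least 1.5-fold higher and 1 was 1.5-fold lower, with a median of 0.12. Over all genes, 2.07% were at least 1.5-fold higher and 1.2% at least 1.5-fold lower. The 5 were Fabp4, the fatty acid carrier of adipocytes (2.80-fold), Adipoq, the adipocyte hormone adiponectin (1.96-fold), Mb, the oxygen store myoglobin of heart and muscle (1.77-fold), Slc2a4, the insulin-sensitive glucose transporter (1.75-fold), and Mrap, which brings the corticotropin receptor to the cell surface (1.51-fold). The laminin chain Lamb3 was the lower one, at 9.06 in the irradiated and 9.69 in the nonirradiated array. None of the 5 higher genes is restricted to brown fat.

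Among the measured genes of the steps that feed heat production, few outside fat cell genes passed 1.5-fold. In adrenergic signalling and lipolysis, 11 of 19 genes were measured, and Pnpla2 and Lipe were among those not matched. Of the 11, 2 were at least 1.5-fold higher and none was 1.5-fold lower. The 2 were the lipid droplet coat gene Plin1, at 8.63 in the irradiated and 7.39 in the nonirradiated array, and the glycerol channel gene Aqp7, at 8.71 in the irradiated and 7.52 in the nonirradiated array. The adenylate cyclases Adcy5 and Adcy3 differed by -0.42 and -0.37, and the lactate and niacin receptors Hcar1 and Hcar2 by -0.19 and -0.39. Among 24 measured genes of fatty acid supply and use, 2 were 1.5-fold higher, Fabp4 and Slc2a4, and the median was -0.08. Acadm, which oxidises medium-chain fatty acids, differed by 0.37, and Fabp5 by -0.40. Of 12 measured genes of creatine and calcium cycling, proposed as sources of heat that do not need UCP1, 1 was 1.5-fold higher, the calcium release channel gene Ryr2 of heart and brain at 1.62-fold, whereas the mitochondrial creatine kinases Ckmt2 and Ckmt1 differed by 0.57 and -0.55. The 7 measured sympathetic nerve genes had a median of 0.01 with none past 1.5-fold in either direction, and Npy, a neuropeptide released with noradrenaline, differed by 0.39 and Ddc by -0.39.

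Most measured genes of the fat cell and heart muscle lists were higher in the same array as the 5 members. These lists were chosen with earlier results of these data known, so their counts are a description and no test. Over all genes, 2.07% were at least 1.5-fold higher in the irradiated array. The 9 measured adipocyte markers, of 11 listed, all passed 1.5-fold upward in the irradiated array. Their differences ran from 0.67 to 1.49 with a median of 0.97, and their summed linear signal was 7481 in the irradiated and 3371 in the nonirradiated array. Fabp4 read 11.82 in the irradiated and 10.34 in the nonirradiated array. It was the brightest of the 9 in both arrays, so these sums depend on Fabp4 more than on any other marker. The hormone gene Lep read 8.54 in the irradiated and 7.25 in the nonirradiated array. Ucp1 and Cidea lay above the range of the adipocyte markers, Cox8b, Otop1 and Cox7a1 within it, and Elovl3 and Adrb3 lay below the lowest adipocyte marker. Of 11 measured heart muscle markers among 13, 9 passed 1.5-fold upward. The median of the 11 was 0.81 and their summed linear signal was 11043 in the irradiated and 5945 in the nonirradiated array. Nppa, the atrial natriuretic peptide gene, differed by 1.93, and the atrial myosin light chain Myl7 by 0.81. The ventricular chains Myl2 and Myl3 were low in both arrays and differed by -0.08 and 0.02. RMA values do not reach 0, so no marker is listed at 0.

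Skeletal muscle, which also uses Cox8b and Cox7a1, differed less. Of its 10 markers, 1 was at least 1.5-fold higher, Ckm, the muscle creatine kinase that heart also makes, at 7.69 in the irradiated and 7.07 in the nonirradiated array. The median was 0.03 and the summed linear signal 1068 in the irradiated and 946 in the nonirradiated array. The 9 measured thymus markers had a median of -0.04 and none past 1.5-fold. Lung epithelial markers were bright in both arrays, but 6 of the 7 were lower in the irradiated array, with a median of -0.14 and none past 1.5-fold. Foxj1, the regulator of cilia, differed by -0.55, Pdpn of alveolar type 1 cells by -0.49, and Sftpc, the surfactant protein C gene, by -0.03. Whether the share of fat or heart tissue in the lung samples had a part in the members' differences was not tested.

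**Figure D4:**
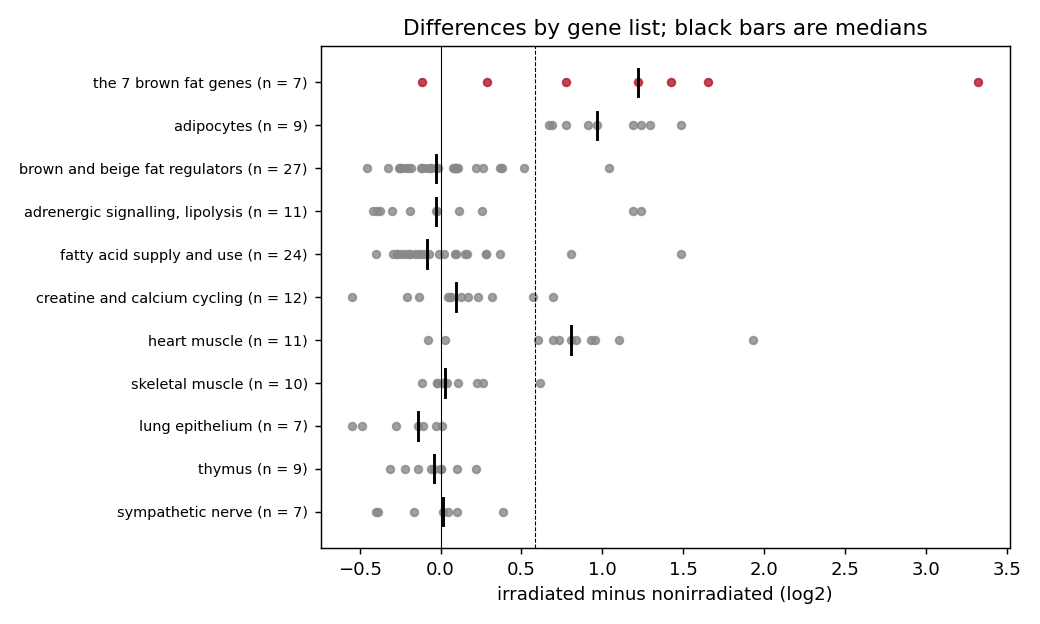
Log2 difference, irradiated minus nonirradiated (x axis), of each measured gene (points) in the 7 brown fat genes (red) and in 10 gene lists (grey, rows), with medians as black bars, 0 as a solid line and the 1.5-fold limit as a dashed line. The medians of the 7 genes (1.22), adipocytes (0.97) and heart muscle (0.81) lie right of the limit, and the other medians lie between -0.14 and 0.10.

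Control rows and repeated rows set the scale of these differences. The log2 differences had an SD of 0.14 over 18 bacterial hybridisation control rows, 0.21 over 23 antigenomic rows, 0.31 over 39 poly-A spike rows, 0.41 over 1352 exon control rows and 0.56 over 5331 intron control rows. Repeated rows of the same gene (1973 rows, 756 genes) differed with a pooled SD of 0.26. Several members were picked because they were known to differ between these arrays, so setting them against these SDs is no test. The differences of Ucp1, Cidea, Cox8b, Otop1 and Cox7a1 were larger than each of these SDs. That of Adrb3 (0.29) lay among them, and that of Elovl3 (-0.11) was smaller in size than each. None of these SDs measures the spread between mice of the same group. Exon and intron control rows report on mouse genes, so their SDs also hold differences between the irradiated and nonirradiated samples. Intron control rows were shifted upward in the irradiated array, with a median difference of 0.27 and 26.5% of 5331 rows at least 1.5-fold higher, while exon control rows had a median difference of -0.08. The part of this intron shift in the members' differences was not tested.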

How the data were processed

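RNA of 1 irradiated and 1 nonirradiated lung sample (300 ng, biotin label) was measured on Affymetrix whole-transcript arrays, as the labels' protocols say. Per the submitters' processing notes, the authors computed the deposited log2 signals by RMA in version 1.3.1 of Affymetrix Expression Console. RMA as usually run forces both arrays onto a common distribution, which hides any shift common to most genes, and shrinks differences of dim genes. The authors' deposited fold change (a ratio of at least 1) drops the direction. It was read beside the log2 signals and used for no result. Values in the workbook and in the value table were the same within rounding error.

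Of 41345 rows, 6980 array controls were set aside. The 20339 rows with 1 symbol were averaged to 19122 genes (pandas 2.3.3). Differences are irradiated minus nonirradiated, and a fold is the larger over the smaller value. Limits of 1.5-fold and 2-fold were used, and single arrays per group gave no p-value. Probe sets of all 7 members are annotated as specific (not cross-hybridising) and of the main category. List symbols were matched as written or through RefSeq synonyms. The counting step was tested on simulated data.

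The members and the lists were chosen with earlier results of these data known. Named genes are the members, their families, up to 6 genes a list with the largest absolute difference, and the 3 nearest genes of each called member. Some genes that this rule names are not reported here. Zic1, Lhx8, Prdm16, Dio2, Sftpc, Myl2, Myl3, the genes of the annotation term, Hcar1 and the chromosome neighbours fall outside this rule. Lists, term and neighbours are described by counts and medians. The alternatives tried were a lowess trend taken out (statsmodels 0.14.6, span 0.3), median centring, other choices of rows and limits on brightness.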

Additional observations from a re-analysis of the deposited data

How the results depend on the processing

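The counts of members past 1.5-fold (5) and 2-fold (4) were the same after median centring and after removal of the trend with brightness (lowess), with medians of 1.23 and 1.24 against 1.22. Row choices (main category, brightest row per symbol, no cross-hybridising rows) and the value table could not change the members, since each rests on 1 specific main-category row with the same signal in both files. A limit that keeps genes bright in at least 1 array also gave 5 and 4, with a median of 1.32, but Ucp1, Cidea and Otop1 pass it only through the irradiated array, so these say nothing of stability. When a gene had to reach the array median in both arrays, 3 members were left (Cox8b, Cox7a1 and Adrb3), of which 2 were 1.5-fold and 1 was 2-fold higher, with a median of 0.77, because the limit removes Ucp1, Cidea, Otop1 and Elovl3. In alternatives chosen after seeing the data, the median was 1.00 without Ucp1, and without Cox8b and Cox7a1 there were 3 members past 1.5-fold among the 5 left. Under centring and lowess, the 14 values of single members moved by at most 0.07. Ucp1 ranged from 3.33 to 3.37 and Elovl3 from -0.14 to -0.10. No paired analysis was possible because each group has 1 array, and for the same reason no array could be left out. Values near the intron rows, such as the nonirradiated Ucp1 signal, limit how far a fold can be read.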
